A study of Mus musculus with 2 samples.

Results

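Stem and progenitor cells of mouse bone marrow are sorted by a few surface receptors, and the genes of 9 of them were read here in LSK cells, the fraction that lacks lineage antigens and carries Sca-1 and c-Kit. Kit and Ly6a encode c-Kit and Sca-1 and define the gate. Cd34, Flt3 and Cd48 mark its multipotent subsets, and Slamf1, Procr, Tek and Tie1 are used for its stem cells or are expressed in them. Members were all non-control probes whose gene name, or the gene of whose transcript accession, was among these 9, and 13 of 55680 probes (9 of 34786 genes or transcripts) met the rule. Kit, Ly6a, Slamf1, Procr, Tek and Tie1 had 1 probe each, Cd34 and Cd48 had 2 each and Flt3 had 3.

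Both groups of LSK cells had 1 genotype, Tet2KD/KD Ezh2Δ/Δ, and came from C57BL/6 bone marrow with a transplantable myelodysplastic syndrome (MDS). The DAC cells were from secondary recipients given decitabine, a nucleoside drug that inhibits DNA methylation, and the PBS cells from recipients given buffered saline instead. Cells were taken 10 weeks after transplantation and were labelled 7w DAC or 7w PBS. That label does not say whether the 7 weeks ran from the start or the end of treatment. Total RNA was labelled with Cy3 and read on Agilent mouse arrays, 1 DAC array and 1 PBS array. The sources used here do not give ages, the number of mice behind each array, or whether host cells were gated out. With 1 array per group there was no replicate check, no test and no p-value.

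c-Kit and Flt3 are receptor tyrosine kinases for stem cell factor and Flt3 ligand, and both carry survival and proliferation signals in early progenitors. Tek (Tie2) is the receptor for angiopoietins and Tie1 is its orphan partner, known best from endothelium and expressed in stem cells too. CD48 and CD150 (Slamf1) are SLAM family receptors, and stem cells are usually gated as CD150-positive and CD48-negative. Procr encodes the endothelial protein C receptor (EPCR), which marks stem cells, while Sca-1 is a small membrane-anchored protein of the Ly6 family and CD34 is a sialomucin. In mice, long-term stem cells are low in CD34 and Flt3, and both appear on multipotent progenitors.

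The probes of Tek and Tie1, which are paralogous kinases, are shown because they were the most alike of all pairs of member probes. The Tek probe lies at chr4:94540624-94540683 (plus strand) and the Tie1 probe at chr4:118144132-118144191 (minus strand), both in mm9. Capitals mark the bases that the probes share when aligned without gaps, with the Tek probe starting at base 4 of the Tie1 probe.
Tek: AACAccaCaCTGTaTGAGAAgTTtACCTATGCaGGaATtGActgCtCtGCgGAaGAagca
Tie1: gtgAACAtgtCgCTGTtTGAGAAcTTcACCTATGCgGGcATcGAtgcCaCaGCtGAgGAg
They shared 39 of 57 aligned bases (68.4%), with a longest shared run of 8 bases, while no other pair of member probes shared more than 26 bases. Among the 13 probes, that of Procr (chr2:155580945-155581004, plus strand) and the brighter Cd34 probe (chr1:196787392-196787451, plus strand) held a polyadenylation signal, AATAAA or ATTAAA, on the strand of the transcript. The sources used here do not say whether the probes lie in exons or untranslated regions.

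Signals are given as the scanner's processed intensity and as a scaled log2 signal, in which 0 is the 75th percentile of its array over probes well above background on both arrays. Differences are DAC minus PBS on the scaled log2 scale. The DAC array was the brighter, with 56.8% of probes well above background against 48.5% on the PBS array, and neither array had saturated spots (0). Repeated spots of other probes gave an SD of a log2 difference of 0.33 in the low, 0.15 in the middle and 0.09 in the high part of the signal range, divided into equal parts by number of probes. That SD was taken over spots within each array, so it covers printing and local variation across an array. It leaves out differences between the arrays in labelling, hybridisation and scanning, and also animals, sorting and amplification. Of 18211 genes well above background on both arrays by their brightest probe, 10.0% were 2-fold or more higher with DAC and 6.84% were 2-fold or more lower (16.9% in all), with a median difference of 0.02. Among probes, 15.6% of the low, 15.3% of the middle and 3.51% of the high part of the signal range were higher by that much, and 8.61%, 9.22% and 3.57% were lower. Higher genes made up 59.4% of those past 2-fold, and 41.8% with scaling over all probes.

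Of the 9 receptor genes, 7 were well above background on both arrays (Kit, Ly6a, Cd34, Flt3, Cd48, Procr and Tie1). Tek passed on the DAC array only, and Slamf1 on neither. Among the 7, Procr and Tie1 were past 2-fold upwards, 2 genes beside 10.0% of all genes, while 0 genes beside 6.84% were past it downwards and 5 lay within 2-fold. Counted by sign, Kit, Ly6a, Procr and Tie1 were above 0, while Cd34, Flt3 and Cd48 were below 0 on each of their 7 probes, beside 48.6% of all genes and 47.7% of all probes on both arrays. Probes of like mean signal had medians of −0.20 and −0.19 around the Cd34 probes. From the brightest probe down, these medians were −0.15 and 0.00 for Cd48 and −0.09, 0.06 and 0.21 for Flt3. The median difference of the 7 genes was 0.07, beside 0.02 over all genes. In bulk RNA of sorted cells, fewer cells of a subset and less RNA per cell cannot be told apart.

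**Figure D1:**
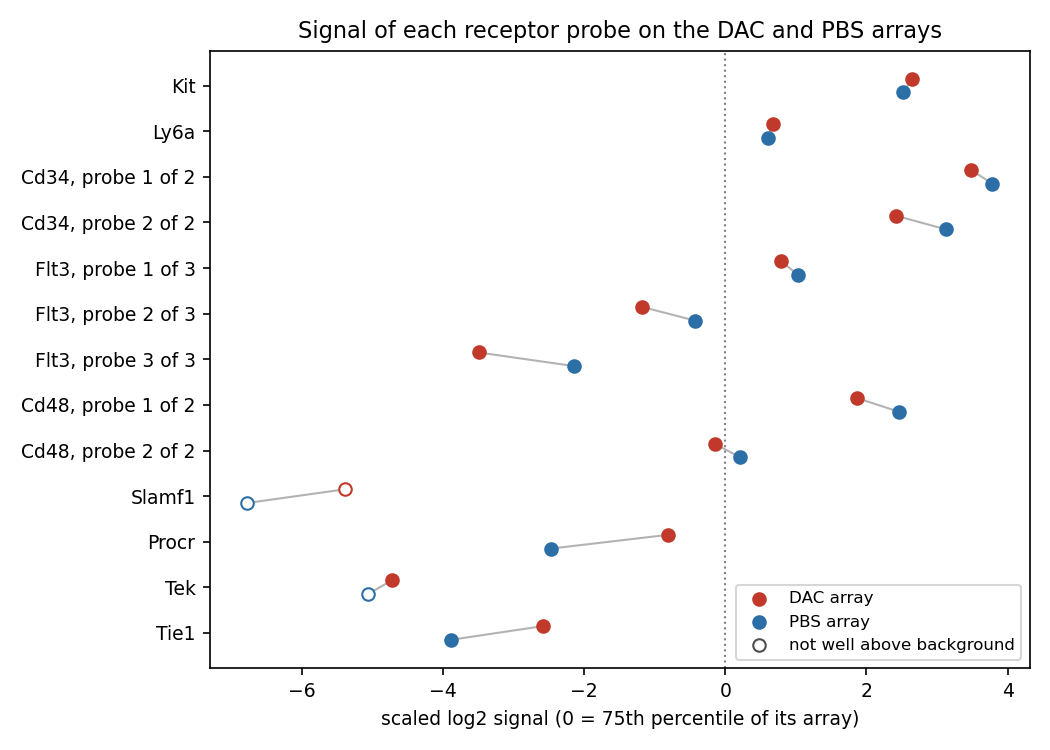
Scaled log2 signal (horizontal axis, 0 is the 75th percentile of the array) of the 13 receptor probes on the DAC array (red, upper point of each row) and the PBS array (blue, lower point), with open points for probes not well above background. The Procr, Tie1, Tek and Slamf1 points lie further right on the DAC array, and all 7 probes of Cd34, Flt3 and Cd48 lie further left.

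The gate genes, for whose proteins the cells of both groups were selected, differed little between the arrays. Kit (NM_001122733, chr5:76052394-76052453, plus strand, mm9) was printed on 2 spots, which read 5172 and 4988 with DAC and 3514 and 3587 with PBS. The scaled log2 signals were 2.64 with DAC and 2.52 with PBS, a difference of 0.12 ± 0.07 (SD from repeated spots). Kit was thus among the bright probes of both arrays. Ly6a (NM_010738, chr15:74825553-74825612, minus strand) had an intensity of 1295 on the DAC array, against 939 on the PBS array. Its difference was 0.07 ± 0.09, within the SD of repeated spots. The scanner's own error of the difference was larger than that SD, at 0.14 for Kit and 0.20 for Ly6a. The sign of both depended on the scaling: Kit ran between −0.08 and 0.28 and Ly6a between −0.14 and 0.11 over the alternatives. Probes of like signal (mean scaled signal within 0.5 of the probe's) had a median difference of −0.18 around Kit and of −0.06 around Ly6a. Kit lay above 77.0% of 918 such probes and Ly6a above 58.3% of 2036.

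Genes of the multipotent subsets were lower on the DAC array at every probe after scaling, although 3 of the 7 unscaled intensities were higher there, on the brighter array. Of 4655 genes with at least 2 probes on both arrays, 23.1% had all of them below 0. Cd34 (NM_133654), the sialomucin that appears as stem cells become multipotent progenitors, had an intensity of 9079 with DAC and 8516 with PBS at its brighter probe. There the scaled difference was −0.30 ± 0.09. The scanner's own error of that difference was 0.20, as it was for the brightest Flt3 probe and the Cd48 probes. The other Cd34 probe (chr1:196785280-196785339, plus strand) read 4335 with DAC and 5370 with PBS, a difference of −0.71 ± 0.09. The brighter probe lay close to the median of its 620 probes of like signal, which was −0.20. The other lay below all but 5.45% of 863, so the 2 probes of Cd34 placed the gene differently among its neighbours in signal.

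Cd48 (NM_007649), a ligand of CD2 and CD244 that is absent from most stem cells, had probes at chr1:173629721-173629780 and chr1:173635201-173635260 (plus strand). The brighter read 2961 with DAC and 3398 with PBS, a difference of −0.60 ± 0.09. The other read 733 with DAC and 714 with PBS, a difference of −0.36 ± 0.09. Neither reached 2-fold, and they lay below 88.7% of 1055 and 72.9% of 2560 probes of like signal. Over the alternatives the brighter probe ran between −0.80 and −0.46 and the other between −0.56 and −0.32.

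Flt3, whose receptor is gained on lymphoid-primed progenitors, had probes that differed most among themselves. The brightest (NM_010229, chr5:148142576-148142635, minus strand) read 1406 with DAC and 1263 with PBS, a difference of −0.24 ± 0.09. It lay above 37.4% of 1833 probes of like signal, whose median was −0.09. The next (NM_010229, chr5:148178496-148178555) read 358 with DAC and 458 with PBS, a difference of −0.75 ± 0.15. The third, designed on the clone AK045865 (chr5:148174133-148174192), read 72.1 with DAC and 140 with PBS, a difference of −1.36 ± 0.33. It was the only receptor probe 2-fold or more lower, 1 of 11 probes read on both arrays, beside 7.13% of 25404 probes. It was under 2-fold without background subtraction (−0.90) and with normexp correction (−0.88). Of probes of like signal, 12.0% of 3431 lay below the second Flt3 probe and 6.86% of 4909 below the third. The Flt3 probes spanned 1.12, those of Cd34 0.40 and those of Cd48 0.23, and the median span over the 4655 genes was 0.68. All 7 probes of Cd34, Flt3 and Cd48 stayed below 0 under each of 8 alternatives tried on them. Not all of these could have changed a sign. Median scaling, scaling over all probes and the matrix values lowered every probe by a constant. The median of spots left these probes, with 1 spot each, almost unchanged. Only quantile normalization, loess and the other background treatments could have raised them above 0.

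Procr and Tie1 stood on the other side. Procr (NM_011171), which encodes EPCR, a receptor that binds protein C and is high on stem cells, read 462 with DAC and 112 with PBS. Its scaled signals were −0.82 with DAC and −2.47 with PBS, a difference of 1.65 ± 0.15, or 3.14-fold. Procr lay above 94.9% of 4140 probes of like signal, of which 14.8% were 2-fold or more higher. It was the only receptor gene past 2-fold under each of 8 alternatives, between 1.19 and 1.65. Tie1 (NM_011587), the orphan partner of Tek, read 136 with DAC and 41.8 with PBS. The difference of Tie1 was 1.31 ± 0.33, or 2.47-fold, above 84.9% of 5012 probes of like signal, of which 21.8% were 2-fold or more higher. Tie1 was under 2-fold with quantile normalization (0.96), normexp correction (0.55) and no background subtraction (0.55). Each gene rested on 1 probe with 1 spot, and of all probes 11.5% were 2-fold or more higher (18.6% in either direction).

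Tek and Slamf1 were at the lower end of what the arrays could read. Tek (NM_013690) read 30.7 with DAC, which passed as well above background, and 18.5 with PBS, which did not. Its measured difference ran between −0.21 and 0.34 over the alternatives, so its direction was not settled and no fold is given. Slamf1 (NM_013730, chr1:173730343-173730402, plus strand), which encodes CD150, read 19.5 with DAC and 5.66 with PBS. Neither reading was well above background, so no fold is given. Its probe lay 95.1 kb from the nearer Cd48 probe in mm9, in the SLAM gene cluster.

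**Figure D2:**
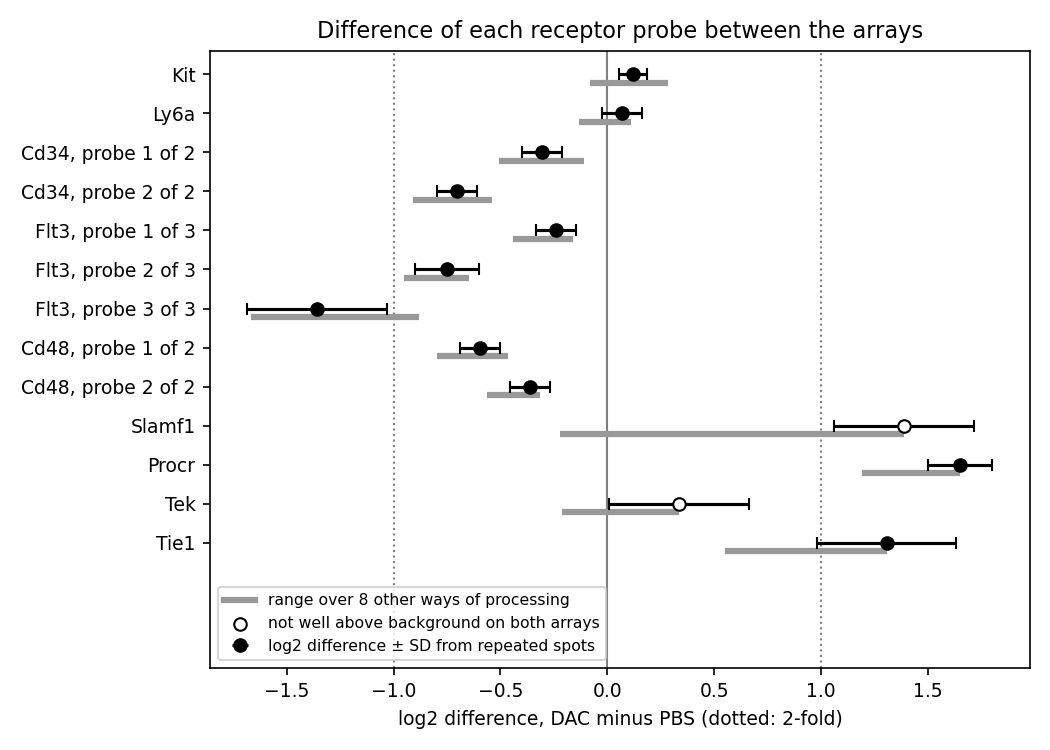
Log2 difference DAC minus PBS (horizontal axis) of each receptor probe, with bars for ± 1 SD from repeated spots and grey lines for the range over 8 alternatives. Dotted lines mark 2-fold and open points mark probes not well above background on both arrays. Only Procr kept its whole grey range above 1, and no grey line of Cd34, Flt3 or Cd48 reached 0.

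**Figure D3:**
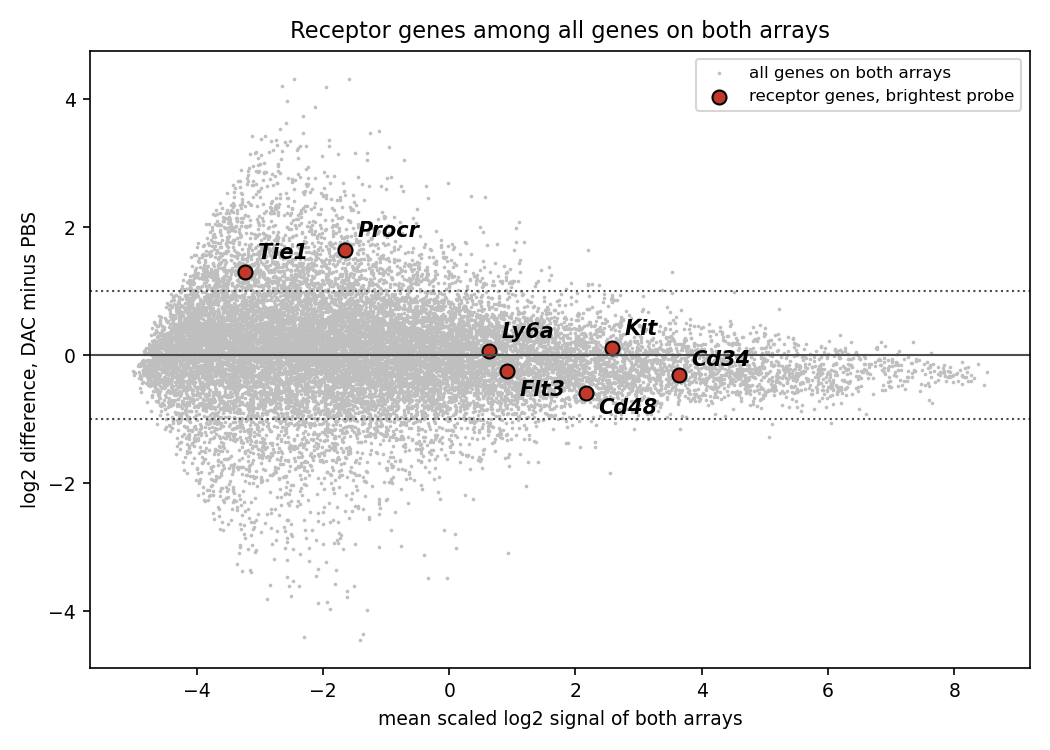
Difference DAC minus PBS (vertical axis, log2) against the mean scaled log2 signal of the arrays (horizontal axis) for 18211 genes on both arrays (grey), with the 7 receptor genes in red. Kit and Cd34 lie among bright genes, where few pass 2-fold (dotted lines), while Procr and Tie1 lie among dimmer genes, where more do.

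Promoter sequence was examined because decitabine acts through methylation at CpG sites. RefSeq windows of 300 bases around the gene start (GRCm38.p6) were found for 8 of the 9 genes, and Ly6a was not matched. The 4 shown are those of Procr and Tie1, the genes past 2-fold, of Flt3, the gene with the lowest probe, and of the gate gene Kit. They lie at chr2:155750967-155751266 (plus), chr4:118489800-118490099 (minus), chr5:147400440-147400739 (minus) and chr5:75574737-75575036 (plus). Capitals mark CpG sites.
Procr: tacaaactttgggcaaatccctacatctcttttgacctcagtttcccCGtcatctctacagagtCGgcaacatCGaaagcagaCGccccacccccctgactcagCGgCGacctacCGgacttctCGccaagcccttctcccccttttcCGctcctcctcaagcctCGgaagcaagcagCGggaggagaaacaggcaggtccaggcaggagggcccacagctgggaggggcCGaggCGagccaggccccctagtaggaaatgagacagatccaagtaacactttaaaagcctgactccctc
Tie1: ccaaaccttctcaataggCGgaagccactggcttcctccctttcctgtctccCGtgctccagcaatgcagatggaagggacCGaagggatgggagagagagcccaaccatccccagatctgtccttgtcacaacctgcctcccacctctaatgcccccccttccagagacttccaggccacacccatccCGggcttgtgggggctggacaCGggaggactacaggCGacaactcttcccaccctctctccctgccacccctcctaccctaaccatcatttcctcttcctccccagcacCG
Flt3: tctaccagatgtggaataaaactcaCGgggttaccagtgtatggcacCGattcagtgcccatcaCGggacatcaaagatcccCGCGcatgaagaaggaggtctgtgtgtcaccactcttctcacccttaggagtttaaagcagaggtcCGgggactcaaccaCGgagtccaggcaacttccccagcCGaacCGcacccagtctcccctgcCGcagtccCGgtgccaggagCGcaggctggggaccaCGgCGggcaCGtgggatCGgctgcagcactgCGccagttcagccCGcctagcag
Kit: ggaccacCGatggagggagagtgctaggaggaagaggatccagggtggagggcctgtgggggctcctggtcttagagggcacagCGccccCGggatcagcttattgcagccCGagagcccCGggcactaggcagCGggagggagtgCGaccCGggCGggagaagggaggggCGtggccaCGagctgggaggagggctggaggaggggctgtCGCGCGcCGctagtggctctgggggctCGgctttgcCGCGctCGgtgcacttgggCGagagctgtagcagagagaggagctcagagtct
The windows held 13 CpG sites in Procr, 7 in Tie1, 18 in Flt3 and 20 in Kit, and the median of all 32851 windows was 7. Those of Cd34 and Cd48 held 7 each, Slamf1 had 4 and Tek 3. Among the receptors with a window, the genes past 2-fold had neither the most nor the fewest CpG sites. Methylation itself was not measured, and a link between CpG sites and the differences was not tested. The ETS motif CGGAAG, on either strand, occurred in Procr, Tie1 and Cd48 and in 16.9% of all windows. The GATA motif AGATAA occurred in Tek only and in 11.2% of all windows, and the RUNX motif TGTGGT in Cd48 only and in 16.8%. The TATA box TATAAA was in none of the 9 receptor windows (Kit has 2) and in 13.6% of all windows. The E-box CANNTG was in all of them but that of Cd34 and in 72.3% of all windows. In Cd48, 1 pair of motif matches overlapped. A match describes letters only and shows no binding.

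Of 12 ligands and partners of the receptors, 6 were well above background on both arrays, with a median difference of 0.12. By their brightest probes 0 of these 6 were past 2-fold, beside 16.9% of all genes. F10, which encodes coagulation factor X, had −0.03 on its brightest probe and 1.46 on the other. Angpt1, the agonist of Tek, was bright, reading 3555 with DAC and 2383 with PBS, a difference of 0.18. Flt3l, the ligand of Flt3, had a difference of 0.72 on its brightest probe and of 0.95 on the other. Angpt2, a context-dependent antagonist of Tek, passed only with DAC, by at least 3.89-fold. Such limits, for this gene and those of the lists that follow, hold for the processing used here and shrank when the background was treated otherwise: the measured difference of Angpt2 was as low as 0.64 over the alternatives. Over the array 37.6% of 3282 genes read only there had a bound of 2-fold or more. Stem cell factor (Kitl), also read well above background only with DAC, had an intensity of 25.9 there and 19.8 with PBS. Cd244a, a receptor for CD48, had a difference of 0.42.

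Genes of signalling below receptor tyrosine kinases were measured in 27 of 33 cases, with 7 past 2-fold upwards, 1 downwards and 19 between, beside 10.0% of all genes upwards and 6.84% downwards. Their median difference was 0.46, beside 0.02 for all genes, and became 0.30 with median scaling, under which that of all genes was −0.14. The higher ones were the MAP kinase kinase Map2k1 (2.01), the ubiquitin ligase Cbl (1.43), which targets active Kit and Flt3, the kinase Jak2 (1.33), the feedback inhibitor Socs2 (1.30), the kinase Fyn (1.30), the adaptor Grb2 (1.18) and the Ras pathway inhibitor Spred1 (1.16). Grb2 and Spred1 were past 2-fold on each of 2 probes, and the second Socs2 probe had 0.72. The lower one was Lyn (−1.56), a Src family kinase bound by Kit. Of these, Jak2, Cbl and Lyn stayed past 2-fold under each alternative. Read only with DAC were the adaptor Gab1 (9.73-fold higher as measured), the ubiquitin ligase Cblb (5.35-fold as measured) and the PI3-kinase subunit Pik3ca (at least 3.57-fold). Over the alternatives their measured differences were as low as 1.45 for Gab1, 0.87 for Cblb and 0.97 for Pik3ca.

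Relatives of the receptors varied within their families. Of 10 other SLAM family and adaptor genes 4 were measured, with a median difference of 0.52. Ly9 (CD229) was lower on both of its probes, at −1.67 each, and remained past 2-fold under each alternative. Cd84 was 2-fold higher (1.07) on its brighter probe, with the other at −0.02, and as low as 0.18 over the alternatives. Of 13 Ly6 family genes on the array 7 were measured, with a median of −0.29 and values from −1.97 for Ly6k to 0.43 for Ly6e. Ly6k was the only relative of Ly6a past 2-fold, beside 16.9% of all genes, reading 218 with DAC and 647 with PBS. Ly6 genes are near-identical in places, so a probe may read more than its own gene.

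The other surface genes used to gate or describe these cells gave 42 measured of 53, with 9 past 2-fold upwards, 3 downwards and 30 between, beside 10.0% and 6.84% of all genes. Their median difference was 0.27, beside 0.02 for all genes. The adhesion receptor Pecam1 was the highest, reading 482 with DAC and 47.5 with PBS, a difference of 2.95. Next were the interleukin 6 receptor genes Il6ra (2.77) and Il6st (1.89), Notch1 (2.21) and the TGF-beta co-receptor Eng (1.85), which with Pecam1 stayed past 2-fold under each alternative. Emcn (1.56), Il7r (1.37) and the integrin gene Itga2b (1.16) did not. Lower were the Fc receptor Fcgr3 (−1.38), Robo4 (−1.18) and Cd38 (−1.10), of which only Fcgr3 stayed past 2-fold under each alternative (Robo4 reached −0.99 and Cd38 −0.87), and Esam, another stem cell surface gene, had −0.95. Cd27, a marker of multipotent progenitors, had −0.56 and −0.09 on its 2 probes. Read only with DAC were Ccr9 (at least 9.54-fold higher), Alcam (at least 8.97-fold), Fcgr2b (at least 3.32-fold), Epor (at least 2.83-fold) and Itgav (at least 2.28-fold). Over the alternatives their measured differences were as low as 1.52 for Ccr9, 1.79 for Alcam, 0.80 for Fcgr2b, 0.54 for Epor and 0.15 for Itgav. Epcam was read only with PBS, so that it was lower with DAC by at least 10.5-fold (−1.89 at its nearest to 0 over the alternatives), and 54.1% of 977 genes read only there had a bound of 2-fold or more.

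Markers of other cells were read beside these results. Procr, Tie1 and Tek are also endothelial genes, and of 22 endothelial and stromal markers 12 were well above background on each array. None of the 10 measured on both was 2-fold higher, beside 10.0% of all genes, and 2 were lower, beside 6.84%. Those lower were Cxcl12 (−1.42) and Fn1 (−1.03), of which neither stayed past 2-fold under each alternative. The summed scaled signal of the list, most of it from Egfl7, was 8.04 with DAC and 8.39 with PBS. Other genes also expressed in endothelium were counted with the surface genes above and not here. Of those, Pecam1 (2.95), Eng (1.85) and Emcn (1.56) were higher, and Robo4 (−1.18) and Esam (−0.95) lower. Of the endothelial genes in the list of 22, Cdh5, Sox17, Sox18 and Stab2 were not well above background on either array. Egfl7, Kdr, Vwf, Flt1 and Plvap were so on both, with differences of −0.12, 0.16, 0.21, 0.49 and −0.84. The other Plvap probe had −1.53. Egfl7 was bright, reading 3881 with DAC and 3213 with PBS. Col4a2 (at least 4.47-fold higher) and Cldn5 (at least 2.35-fold) were read only with DAC, and Fabp4 (at least 5.70-fold lower) and Col3a1 (at least 2.46-fold lower) only with PBS. Of these limits, Cldn5 had a measured difference as low as 0.29 over the alternatives, Col4a2 0.91, and Col3a1 and Fabp4 came as near to 0 as −0.79 and −1.52.

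Mast cells carry Kit as well, and of their 12 markers with basophils 8 were measured. In that list Tpsb2 (1.36, and 0.56 on its other probe), Hdc (1.35) and Gata2 (1.17) were 2-fold higher, beside 10.0% of all genes. Prss34 (−1.87), Cma1 (−1.38) and Cpa3 (−1.04) were 2-fold lower, beside 6.84% of all genes. Fcer1a was read only with PBS (2.85-fold lower with DAC as measured). Only Prss34 stayed past 2-fold under each alternative: Tpsb2 was as low as 0.96, Hdc 0.46 and Gata2 0.97, Cma1 came as near to 0 as −0.91 and Cpa3 −0.94, and Fcer1a −0.78. The summed scaled signal was 3.79 with DAC and 3.87 with PBS. Most of it came from Gata2 and Cpa3, which differed in opposite directions. The defining gene Ms4a2 was not well above background on either array.

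Of 15 genes of lineage antigens, 10 passed as well above background with DAC and 8 with PBS. Itgam, which encodes CD11b, was bright, reading 40456 with DAC and 44994 with PBS. Its difference was −0.55 on that probe, and 2 of its 3 probes were above 0, the highest at 1.58. Cd79a, a B cell receptor subunit, read 3088 with DAC and 1390 with PBS. The lineage antibodies are not named in the sources used here. Cd5 was the only lineage gene past 2-fold (1.08) among the 8 measured, and Il2rb, read only with DAC, was higher by at least 7.02-fold. Over the alternatives they were as low as 0.33 for Cd5 and 1.60 for Il2rb. Of the 8 measured, 7 were above 0 and 1 below, beside 48.6% of all genes below 0. Their median was 0.39, beside 0.02 for all genes, and became 0.23 with median scaling, beside −0.14. The summed scaled signal of the list, most of it from Itgam, was 56.3 with DAC and 76.9 with PBS.

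Mature myeloid, erythroid and lymphoid lists had medians of −0.40, −0.05 and 0.25 over 12, 8 and 12 measured genes. Over all genes 10.0% were 2-fold higher and 6.84% lower. In the myeloid list Ltf (1.47) was 2-fold higher and Ngp (−1.59), Lcn2 (−1.25) and Cx3cr1 (−1.10) lower. Read only with DAC were Adgre1 (at least 4.97-fold higher), Lgals3 (at least 3.84-fold) and Retnlg (at least 2.06-fold), whose measured differences were as low as 0.84, 0.71 and 0.26 over the alternatives. In the erythroid list Car1 (1.82) was 2-fold higher, with its other probe at −0.16. In the lymphoid list Pax5 (1.28) was 2-fold higher and Gzmb (−1.47) and Ebf1 (−1.08) lower, and Cd3d was read only with PBS (at least 4.51-fold lower with DAC; −1.19 at its nearest to 0). Of the genes measured in these 3 lists, Ngp, Lcn2, Car1, Pax5 and Gzmb stayed past 2-fold under each alternative, and Ltf, Cx3cr1 and Ebf1 did not. The part of other cell types in the differences of the receptor genes was not tested.

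**Figure D4:**
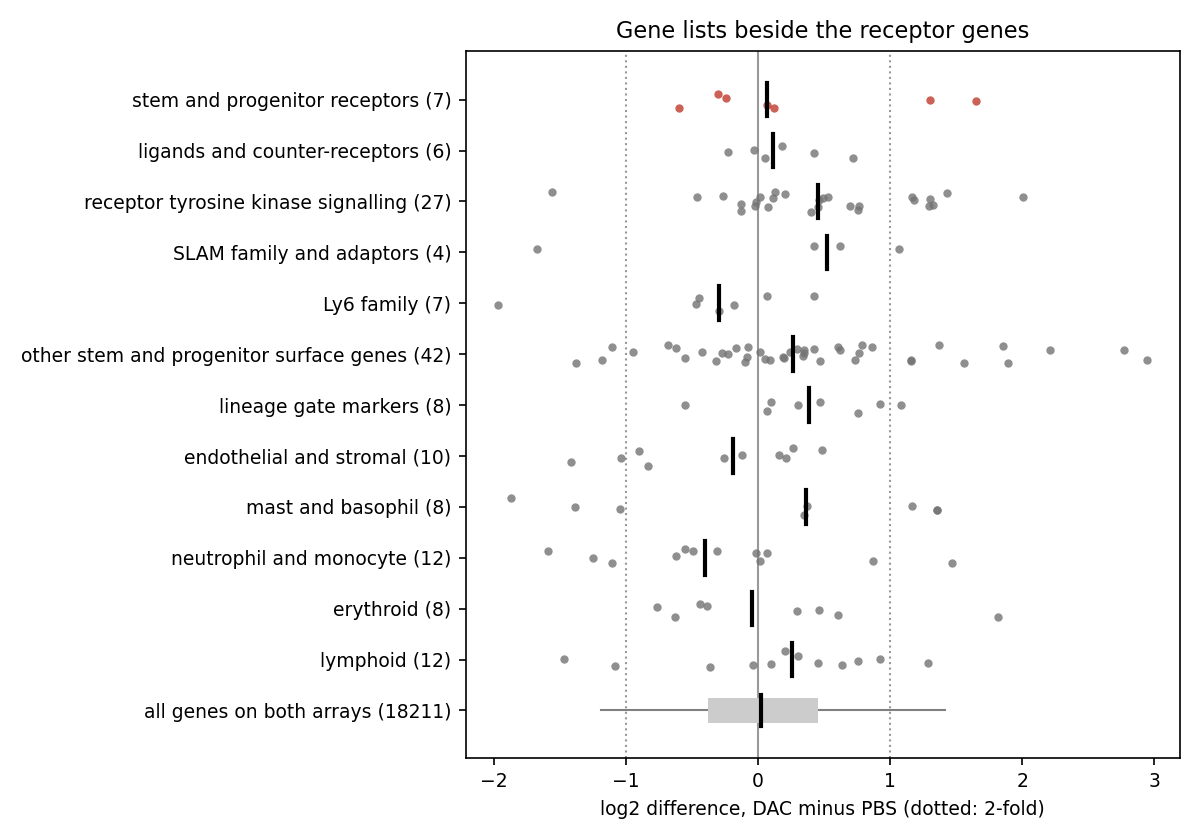
Log2 difference DAC minus PBS (horizontal axis) of the genes on both arrays in each list, 1 point per gene, with a black bar at the list's median and the number of genes in brackets. The bottom row gives all 18211 genes as a box from the 25th to the 75th percentile, with a line from the 5th to the 95th. The 7 receptor genes (red) have a median of 0.07, with Procr and Tie1 apart to the right.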

How the data were processed

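The deposited scanner files hold an intensity for each spot. Per the file headers, Agilent Feature Extraction 10.7.3.1 subtracted background and detrended the processed intensity, with probe positions on mm9, and both arrays lay on 1 slide. The mean and local background intensity and the spot calls come from the same deposited files. The deposited series matrix holds log2 values whose column difference had a slope of 1.00 on that of the log2 intensity. Its columns have a median of 0 each, and the baseline subtracted from each probe is unknown.

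Outlying spots were left out and the rest of a probe averaged on the log2 scale. Each array was scaled by its 75th percentile over 25404 probes well above background (at least 50% of spots) on both, 45.6% of all. The brightest probe stood for a gene. Genes were named through RefSeq (GRCm38.p6), used for names and promoters only. Python 3.11.15 and limma 3.58.1 were used, and the steps were tested on simulated data. A gene on 1 array only was given a bound against the other array's lowest signal that carried this call. Where the gene's own signal there was higher, that signal was used instead. This was so for Gab1, Cblb and Fcer1a, whose values are therefore measured folds against a reading not well above background. The number of arrays limits the precision. Members and lists were chosen with earlier results of these data known. All receptor probes were named, and of the lists every measured gene past 2-fold and up to 6 genes with a bound of at least 2-fold. Of the genes that this rule names, 1 is not reported here. Likeness of pattern was not ranked, since 2 arrays give 1 difference per probe. Other scalings (median, all probes, quantile, loess, matrix values), background treatments (normexp, offset 50, and none), filters and averages were tried.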

Additional observations from a re-analysis of the deposited data

How the results depend on the processing

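No paired analysis was possible because each group held 1 array, and no array could be left out. Of 104 values of the 13 receptor probes over 8 alternatives, 54 moved by less than the SD of repeated spots and 50 by more. The median of spots could hardly move any of them, since each probe had 1 spot or, for Kit, 2. Matrix values nearly repeated scaling over all probes, so the 8 alternatives were not all separate checks. Of the probes past 2-fold and well above background on both arrays, 0 changed sign. Slamf1, below background, had 1.39 as processed, −0.22 with normexp correction and −0.10 with no background subtraction. Scaling alone shifted the median of all genes by −0.16 (median scaling), −0.20 (all probes), −0.20 (matrix values), −0.11 (quantile) and −0.07 (loess), which turned Kit and Ly6a below 0 under the first 3 of these. The number of receptor genes at least 2-fold higher was 2 of 7, beside 10.0% of all genes. It became 1 with quantile normalization, normexp correction and no background subtraction, as Tie1 left, beside 7.36%, 3.96% and 3.94% of all genes. With the looser call (spot positive and significant) and without a filter it was 3 of 9, as Slamf1 joined, beside 14.4% and 15.4% of all genes. The number lower was 0 under each alternative, beside 4.04% (no background subtraction) to 10.2% (scaling over all probes) of all genes. The counts of all genes (1824 higher, 1245 lower) became 721 and 752 with normexp correction, 717 and 735 with no background subtraction, 3665 and 2196 with the looser call, and 5364 and 3038 with no filter. Causes of these moves were not tested. Slamf1 and Tek lay too near background to be compared.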
